A study of Mus musculus with 8 samples.

Results

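Open chromatin of wild-type mouse cortical neurons was compared before and after 1 h of depolarisation with KCl. The sites compared are the 33328 nucleosome-free ATAC-seq peaks of the unstimulated neurons (WT basal) and the 19847 of the depolarised neurons (WT KCl) on chromosomes 1 to 19, or 53175 of the 100484 peaks in the 4 lists of the series. Peaks of both lists were matched when they overlapped by at least 1 bp. ATAC-seq uses the Tn5 transposase to cut accessible DNA and attach sequencing adapters, and nucleosome-free fragments are those short enough to come from DNA without a nucleosome.

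The neurons were primary cultures from the cortex of E16.5 embryos, and their genotype was given only as Brg1 WT. KCl was used at 50 mM for 1 h on day 6 in vitro. Before depolarisation, on day 5 in vitro, the KCl cultures received TTX at 1 µM and APV at 100 µM, and the labels leave unsaid whether basal cultures were treated likewise. The other 2 conditions were BAF53bCre Brg1F/F neurons (cKO) with and without KCl, in which a Cre driven from a neuronal gene deletes Brg1, the catalytic subunit of BAF, a chromatin remodelling complex. Each library came from 50000 cells, each condition had 2 libraries, and 1 peak list per condition was analysed. No spread between replicates can therefore be given and no test compares the conditions. The 95% Clopper-Pearson intervals below cover counting error only. In these bulk lists a site open in fewer cells and a site open less in each cell cannot be told apart.

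Raised extracellular KCl depolarises neurons and opens L-type calcium channels. Calcium then acts through calmodulin-dependent kinases and the MAP kinase pathway on CREB, SRF and MEF2, which occupy the promoters of activity-regulated genes. Rapid response genes such as Fos, Junb, Nr4a1 and Egr1 mostly encode transcription factors and are transcribed within minutes without new protein synthesis, and delayed response genes such as Bdnf and Nptx2 follow them. CREB binds the CRE (TGACGTCA) or its core (TGACG), SRF binds the CArG box, Fos and Jun proteins bind the AP-1 site (TGANTCA), and Egr proteins bind GCGTGGGCG.

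The 300-base windows at gene starts, 250 bases before and 50 after, are shown for the rapid response genes that had a peak there in 1 list only, because rapid response genes are the genes that depolarisation is best known to induce. All are RefSeq sequences of GRCm38.p6, written 5′ to 3′ on the strand of the gene. Capitals mark the core TGACG or its reverse complement CGTCA, an Egr site, or a CArG box, and where both overlap as TGACGTCA they form the full CRE. The first 5 windows had a peak in WT KCl only.
Nr4a1 (chr15:101266596-101266895, plus strand): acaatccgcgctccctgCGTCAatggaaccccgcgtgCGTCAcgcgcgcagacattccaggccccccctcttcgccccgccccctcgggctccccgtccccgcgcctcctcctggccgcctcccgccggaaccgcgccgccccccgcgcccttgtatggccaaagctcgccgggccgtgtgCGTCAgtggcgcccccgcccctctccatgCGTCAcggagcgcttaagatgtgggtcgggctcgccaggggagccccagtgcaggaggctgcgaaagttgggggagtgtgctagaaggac
Gadd45b (chr10:80929841-80930140, plus strand): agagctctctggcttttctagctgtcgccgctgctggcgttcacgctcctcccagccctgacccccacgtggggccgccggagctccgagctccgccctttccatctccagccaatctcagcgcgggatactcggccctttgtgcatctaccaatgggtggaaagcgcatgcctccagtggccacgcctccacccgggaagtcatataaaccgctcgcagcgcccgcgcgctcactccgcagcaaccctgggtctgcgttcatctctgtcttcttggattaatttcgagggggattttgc
Dusp1 (chr17:26508423-26508722, minus strand): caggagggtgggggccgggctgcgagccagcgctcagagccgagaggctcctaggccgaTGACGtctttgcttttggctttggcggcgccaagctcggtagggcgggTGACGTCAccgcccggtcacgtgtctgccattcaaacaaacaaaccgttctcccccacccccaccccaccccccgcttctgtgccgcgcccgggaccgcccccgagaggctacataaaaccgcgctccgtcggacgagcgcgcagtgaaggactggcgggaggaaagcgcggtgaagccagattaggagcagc
Maff (chr15:79347270-79347569, plus strand): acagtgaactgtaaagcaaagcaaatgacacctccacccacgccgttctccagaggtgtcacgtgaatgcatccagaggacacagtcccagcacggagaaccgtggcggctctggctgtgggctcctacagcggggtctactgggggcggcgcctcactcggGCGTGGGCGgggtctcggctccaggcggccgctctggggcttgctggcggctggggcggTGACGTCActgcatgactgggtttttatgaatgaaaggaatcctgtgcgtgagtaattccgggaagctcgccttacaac
Junb (chr8:84978699-84978998, minus strand): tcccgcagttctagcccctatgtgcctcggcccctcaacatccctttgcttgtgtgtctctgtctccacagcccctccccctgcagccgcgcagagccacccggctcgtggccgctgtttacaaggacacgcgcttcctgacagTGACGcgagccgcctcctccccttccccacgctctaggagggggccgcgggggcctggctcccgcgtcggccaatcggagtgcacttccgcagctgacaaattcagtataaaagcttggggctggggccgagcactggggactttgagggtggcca
The Egr2 window had a peak in WT basal only.
Egr2 (chr10:67537316-67537615, plus strand): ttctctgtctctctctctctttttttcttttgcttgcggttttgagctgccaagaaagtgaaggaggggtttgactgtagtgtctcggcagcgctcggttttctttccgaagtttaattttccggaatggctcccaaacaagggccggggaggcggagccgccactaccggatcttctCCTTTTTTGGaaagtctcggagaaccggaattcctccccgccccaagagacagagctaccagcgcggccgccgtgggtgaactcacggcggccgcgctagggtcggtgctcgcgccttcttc
Windows with a peak in both lists are given for Fos and Btg2 for comparison.
Fos (chr12:85473640-85473939, plus strand): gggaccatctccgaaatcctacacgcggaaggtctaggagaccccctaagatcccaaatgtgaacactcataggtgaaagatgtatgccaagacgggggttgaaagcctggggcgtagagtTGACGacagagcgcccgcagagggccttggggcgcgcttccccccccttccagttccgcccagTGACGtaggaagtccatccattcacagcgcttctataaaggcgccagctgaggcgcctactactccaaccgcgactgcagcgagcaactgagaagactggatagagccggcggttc
Btg2 (chr1:134079106-134079405, minus strand): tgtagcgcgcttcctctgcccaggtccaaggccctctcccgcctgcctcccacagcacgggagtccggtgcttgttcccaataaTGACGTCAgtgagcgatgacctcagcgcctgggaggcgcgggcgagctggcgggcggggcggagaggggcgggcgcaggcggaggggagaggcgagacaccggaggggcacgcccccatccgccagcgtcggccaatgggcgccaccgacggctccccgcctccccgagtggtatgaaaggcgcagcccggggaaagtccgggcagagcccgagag
Klhdc4 and Brix1 come from the strongest gene-end peaks of WT KCl and of WT basal that the other list lacked, each the first such gene whose window had a peak in that list only.
Klhdc4 (chr8:121829520-121829819, minus strand): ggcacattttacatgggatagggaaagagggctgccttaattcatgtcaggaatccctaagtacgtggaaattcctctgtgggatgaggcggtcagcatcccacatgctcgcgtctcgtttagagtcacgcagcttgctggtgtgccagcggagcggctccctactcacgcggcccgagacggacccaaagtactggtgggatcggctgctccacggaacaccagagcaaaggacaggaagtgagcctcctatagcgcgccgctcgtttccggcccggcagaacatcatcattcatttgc
Brix1 (chr15:10485888-10486187, minus strand): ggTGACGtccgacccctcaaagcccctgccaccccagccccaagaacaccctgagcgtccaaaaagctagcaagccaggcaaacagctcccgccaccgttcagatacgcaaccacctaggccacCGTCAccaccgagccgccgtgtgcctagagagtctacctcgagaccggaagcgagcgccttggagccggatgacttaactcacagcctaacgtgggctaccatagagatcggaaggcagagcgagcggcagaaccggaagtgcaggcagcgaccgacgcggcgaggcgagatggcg

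The Nr4a1 window held 4 copies of the core, the first bases of which lay 233, 213, 69 and 40 bases before the start. Dusp1 held a full CRE 143 bases before the start and a further core at 191, and Maff held a full CRE 29 bases before the start and an Egr site at 88. Btg2, open in both lists, also held a full CRE, at 166. Fos held cores at 129 and 66, and Junb held 1 at 106. Brix1, of WT basal only, held cores at 248 and 126. Gadd45b and Klhdc4 held none of the motifs marked, and Egr2 held a CArG box 72 bases before the start. Cores thus stood in windows of all 3 kinds. A letter match is a description of the sequence and does not show that a factor was bound.

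Most peaks of WT basal had no counterpart after KCl, and a large share of the WT KCl peaks had none before it. Gene ends and peaks of high fold were mostly present in both lists. Of the WT basal peaks, 23073 had no overlapping WT KCl peak (69.2%, interval 68.7 to 69.7%). Of the WT KCl peaks, 9551 had no overlapping WT basal peak (48.1%, interval 47.4 to 48.8%). The larger share thus belonged to the longer list. Both shares were similar on every chromosome, from 64.7 to 71.5% for WT basal and from 45.7 to 51.5% for WT KCl. The local background recovered from the deposited values had a floor, set by all reads and taken as its most frequent value. This floor was 9.30 in WT basal and 8.23 in WT KCl, a ratio of 1.13. The part of depth in the list lengths was not tested.

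Gene ends were the sites that the lists shared most. A gene end here is a position within 1 kb of either end of a protein-coding gene, and these were absent from the other list for 34.5% of 10387 WT basal peaks and 19.4% of 8443 WT KCl peaks. Within genes but away from their ends the shares were 83.3% of 12405 and 66.8% of 6355 peaks. Between genes they were 86.9% of 10536 and 72.6% of 5049 peaks. Where RefSeq gives the strand, gene starts and 3′ ends stood apart. At starts 29.5% of WT basal and 16.2% of WT KCl peaks were unmatched, and at 3′ ends 89.5% and 78.3%. Peaks near 3′ ends were therefore unmatched about as often as peaks between genes, in both directions.

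**Figure D1:**
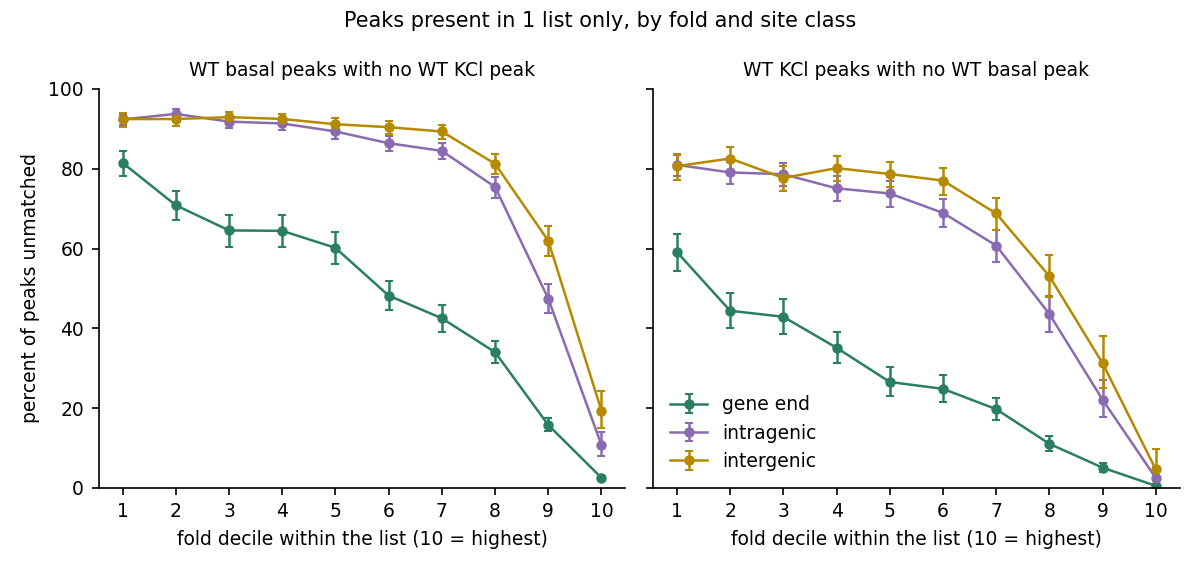
Percent of peaks with no overlapping peak in the other list (y axis) by decile of fold within the list (x axis, 10 highest), for gene ends, intragenic and intergenic sites, with 95% Clopper-Pearson bars. Gene ends lie lowest in every decile, and in the top decile of WT KCl all 3 classes lie under 5%.

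Strong peaks were nearly all present in both lists. In the top fold decile, 5.07% of WT basal peaks and 1.01% of WT KCl peaks were unmatched, against 90.2% and 75.8% in the lowest. Fold is the authors' value for each peak, the pileup over the local background at the summit, so the same fold in both lists was also compared. Between 3 and 3.5, gene-end peaks were unmatched in 36.5% of 2199 in WT basal and 19.9% of 2283 in WT KCl. Between 4 and 5 the shares were 5.45% of 1597 and 1.54% of 1554. From a fold of 5 upward, 25 of 1671 WT basal peaks had no WT KCl peak, which is 1.5% with an interval of 0.970 to 2.20%. No WT KCl peak of that fold lacked a WT basal peak, 0 of 731, which allows a share of up to 0.503%. At each of the 5 fold ranges compared, WT basal peaks were thus unmatched more often than WT KCl peaks of the same fold, and from a fold of 5 the intervals did not overlap. WT basal peaks were also matched against the shorter list.

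**Figure D2:**
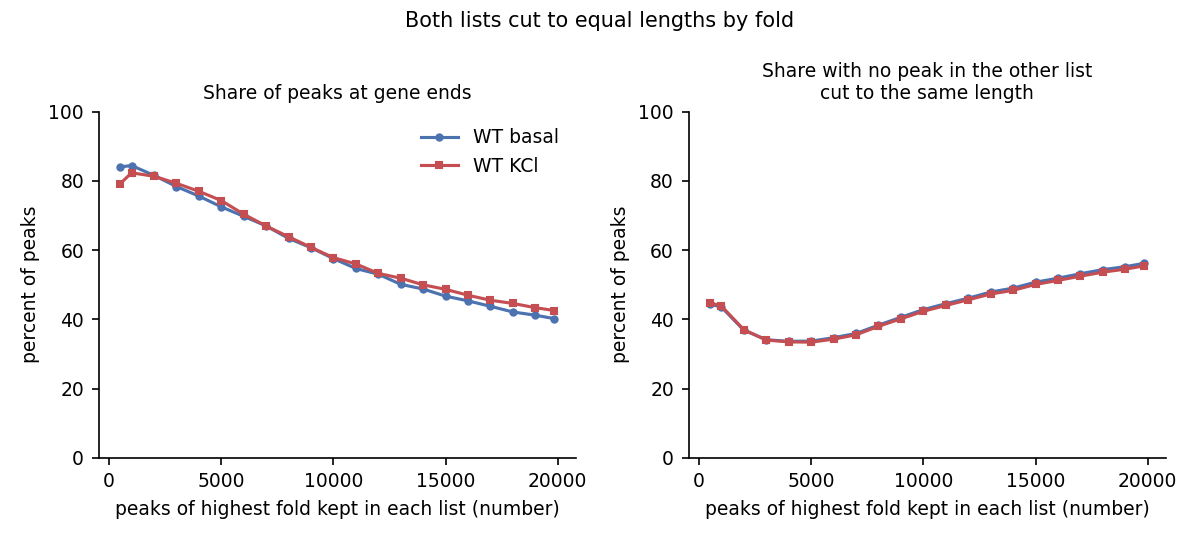
Percent of peaks at gene ends (left) and percent with no overlapping peak in the other list (right), with both WT lists cut to the same number of peaks of highest fold (x axis). From 2000 to 10000 peaks the curves of WT basal and WT KCl lie nearly on each other, at 57.5% and 57.8% gene ends at the latter length. Matching works both ways, so the right-hand curves lie close by construction.

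With both lists cut to the same length by fold, the make-up of the lists differed little at 10000 peaks and more at 19847. Among the 10000 strongest peaks, 57.5% of WT basal (interval 56.5 to 58.5%) and 57.8% of WT KCl (56.8 to 58.8%) lay at gene ends. Intragenic sites made up 23.2% and 23.4%, and intergenic sites 19.3% and 18.8%. At this length 42.8% of WT basal and 42.3% of WT KCl peaks were unmatched. Among the strongest 5000 the gene-end shares were 72.5% and 74.3%. At the full length of WT KCl, 19847 peaks, they were 40.2% (39.5 to 40.9%) and 42.5% (41.9 to 43.2%), and 56.2% and 55.4% of the peaks were unmatched. Intergenic sites made up 28.8% (28.1 to 29.4%) of WT basal and 25.4% (24.8 to 26.1%) of WT KCl at that length, so neither pair of intervals overlapped. The uncut lists had 31.2% and 42.5%, so most of that gap went with the added WT basal peaks of low fold. Equal length was not equal fold at 19847 peaks, since the lowest fold kept was 2.72 in WT basal and 1.61 in WT KCl. With WT basal cut to 19847 peaks by −log10 p, its gene-end share was 42.1%, within the WT KCl interval. The gene-end difference at that length thus depended on ranking by fold.

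Peaks present in 1 list were narrow and shallow in both directions. Unmatched WT basal peaks had a median width of 246 bp and 30 fragments at the summit, and shared ones 406 bp and 42 fragments. Unmatched WT KCl peaks had 238 bp and 27 fragments, and shared ones 358 bp and 35. The lowest summit called was 21 fragments in WT basal and 20 in WT KCl, so the typical unmatched peak lay not far above the calling threshold. A peak of the other list lay within 1 kb of 7.83% of unmatched WT basal peaks and 12.8% of unmatched WT KCl peaks. Position relative to genes was alike. Of the unmatched peaks, 15.5% of WT basal and 17.2% of WT KCl lay at gene ends, 24.4% and 24.3% at 1 to 10 kb from one, and 32.7% and 32.4% at 10 to 50 kb. Of the shared peaks, 66.3% and 66.1% lay at gene ends.

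The strongest WT basal peaks with no WT KCl peak lay both at gene ends and away from them. Of the 25 with a fold of at least 5, 11 lay at gene ends. Of the 10 strongest gene-end peaks, 8 were at known gene starts. The first was the shared start of Brix1, a ribosome biogenesis factor, and Rad1, a subunit of the DNA damage checkpoint clamp (chr15:10485805-10486170), with a fold of 7.58 and 77 fragments. The nearest WT KCl peak was 15 kb away. The next were Dlst and Prox2 (fold 5.62), Plekhg1 (5.54), the RNA helicase gene Dhx30 (5.52), the ribosomal protein gene Rpl22l1 (5.24), Gm1979 (5.24), Snapin (5.18), and Yae1d1, Sap18 and the histidyl-tRNA synthetase pair Hars and Hars2 (5.05 each). Away from gene ends the strongest lay 53.4 kb from Chd2, a chromatin remodeller (fold 6.60, 67 fragments), then 66.0 kb from Mpp7 (6.12). Others lay in Smarcc1, which encodes a BAF subunit (5.83), 316 kb from the Notch ligand gene Jag1 (5.44), in Ift46, in the catenin gene Ctnnd2 and in Zswim6 and Vps41. Those near Ndfip2 and Mrpl39, at 174 and 676 kb, completed the 10.

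All 20 of these WT basal peaks overlapped a peak of the uncut cKO KCl list (24947 peaks). Of them, 17 overlapped one in cKO basal (19921 peaks) as well. Of the 1229 peaks of WT basal alone in its top 2 fold deciles, 57.5% and 40.6% overlapped these uncut lists. The part of the longer cKO KCl list in these counts was not tested. The sites missing from the WT KCl list were thus present in the other list of KCl-treated neurons.

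The strongest WT KCl peaks with no WT basal peak were weaker, with 38 to 51 fragments. At gene ends 9 of the 10 strongest were at E430018J23Rik (fold 4.73, with a WT basal peak 1.77 kb away), Klhdc4 (4.66), Garre1 (4.60), Poldip2 and Tmem199 (4.55), the lipase gene Abhd6 (4.46), the mitochondrial ribosomal protein gene Mrpl15 and the nucleolar protein gene Nol10 (4.44 each), Ccdc173 and Phospho2 (4.33) and the RNA polymerase II-associated gene Rpap1 (4.22). None of the 10 is on the rapid or the delayed list. Each of these lists holds 20 of 20661 protein-coding genes, so this absence carries little information. Of the 10, 9 overlapped a peak of the uncut cKO KCl list and 6 a cKO basal peak. Of the 231 peaks of WT KCl alone in its top 2 fold deciles, 44.6% and 26.0% did.

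Away from gene ends the WT KCl peaks lay in Plag1 (4.55), Trim50 (4.49), the catenin gene Ctnnd1 (4.44), Cntrl (4.33) and Srsf1 (4.33). Further ones lay 97.8 kb from Sptssa (4.33), 41.6 kb from Pdcd6ip (4.22) and 360 kb from Olfr161 (4.31). A pair had Alkbh8 as the nearest gene, at 334 and 313 kb (4.66 and 4.33). These lay at chr9:3001319-3001542 and chr9:3022074-3022273, and how uniquely reads map there was not examined. A WT basal peak lay within 1 kb of 3 of the 10, at 0.511 kb for the first Alkbh8 peak, 0.446 kb for Olfr161 and 0.280 kb for Srsf1. Of the 10, 6 overlapped a peak of the uncut cKO KCl list and 3 neither cKO list.

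Across all unmatched peaks, presence in the cKO lists was low, and it was higher for peaks of WT basal alone. With both cKO lists cut to 19921 peaks, 12.1% (11.7 to 12.5%) of the peaks of WT basal alone were in cKO basal and 14.3% (13.8 to 14.7%) in cKO KCl. Of the peaks of WT KCl alone, 9.86% (9.27 to 10.5%) were in cKO basal and 11.9% (11.3 to 12.6%) in cKO KCl. In the top 2 fold deciles of each list the shares were 40.6% (37.8 to 43.4%) and 56.1% (53.2 to 58.9%) of 1229 peaks of WT basal alone, against 26.0% (20.4 to 32.1%) and 43.3% (36.8 to 49.9%) of 231 peaks of WT KCl alone. Of the WT basal peaks shared with WT KCl, 73.8% and 80.0% were present there. At gene ends the peaks of WT KCl alone reached 26.2% in cKO basal and 33.8% in cKO KCl, and those of WT basal alone 29.5% and 34.6%. Peaks of WT basal alone and of WT KCl alone were thus both found more often in cKO KCl than in cKO basal.

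Rapid response genes more often had a start-window peak in WT KCl alone than in WT basal alone. Of the 20 genes, 16 have a RefSeq start window, and 5 of them, Junb, Nr4a1, Gadd45b, Maff and Dusp1, had a peak there in WT KCl only, against 4.47% of all 16456 genes with a window. Egr2 was the 1 gene with a peak in WT basal only, against 9.42% of all genes. Fos, Jun, Btg2, Klf4 and Fbxo33 had a peak in both lists, as did 33.8% of all genes. Fosb, Egr4, Npas4, Amigo3 and Ccn1 had a peak in neither, as did 8602 of all 16456 genes. The genes were chosen with earlier results of these data known, so the count is a description.

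The 5 peaks of WT KCl alone had folds of 2.53 to 3.38. Nr4a1, an orphan nuclear receptor, had the strongest, with a fold of 3.38 and 47 fragments (chr15:101266614-101266893), and the nearest WT basal peak was 10.6 kb away. This start lies inside the annotated gene, so the gene-end count does not include it. Gadd45b, which encodes a stress-response protein linked to DNA demethylation, had a fold of 3.10 and 45 fragments (chr10:80929871-80930088), with no WT basal peak within 28.8 kb. Maff, a small Maf transcription factor, had 2.72 and 34 fragments (chr15:79347327-79347763), and the nearest WT basal peak was 18.9 kb away. Junb, an AP-1 subunit, had 2.53 and 37 fragments (chr8:84978720-84979024), with the nearest WT basal peak at 12.5 kb. For these 4 genes the difference was thus the presence of a whole peak.

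Dusp1 was different. Its WT KCl peak (chr17:26508307-26508931, fold 2.87, 39 fragments) lay 0.071 kb from a WT basal peak of fold 3.01 that ended outside the window, so this MAP kinase phosphatase gene was open near its start in both lists. The Egr2 peak of WT basal (chr10:67537432-67537880, fold 2.53, 41 fragments) lay 10.4 kb from the nearest WT KCl peak. Of all windows with a peak in WT KCl only, 16.8% had a WT KCl peak that overlapped a WT basal peak outside the window, and the share was 13.4% in the other direction.

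**Figure D3:**
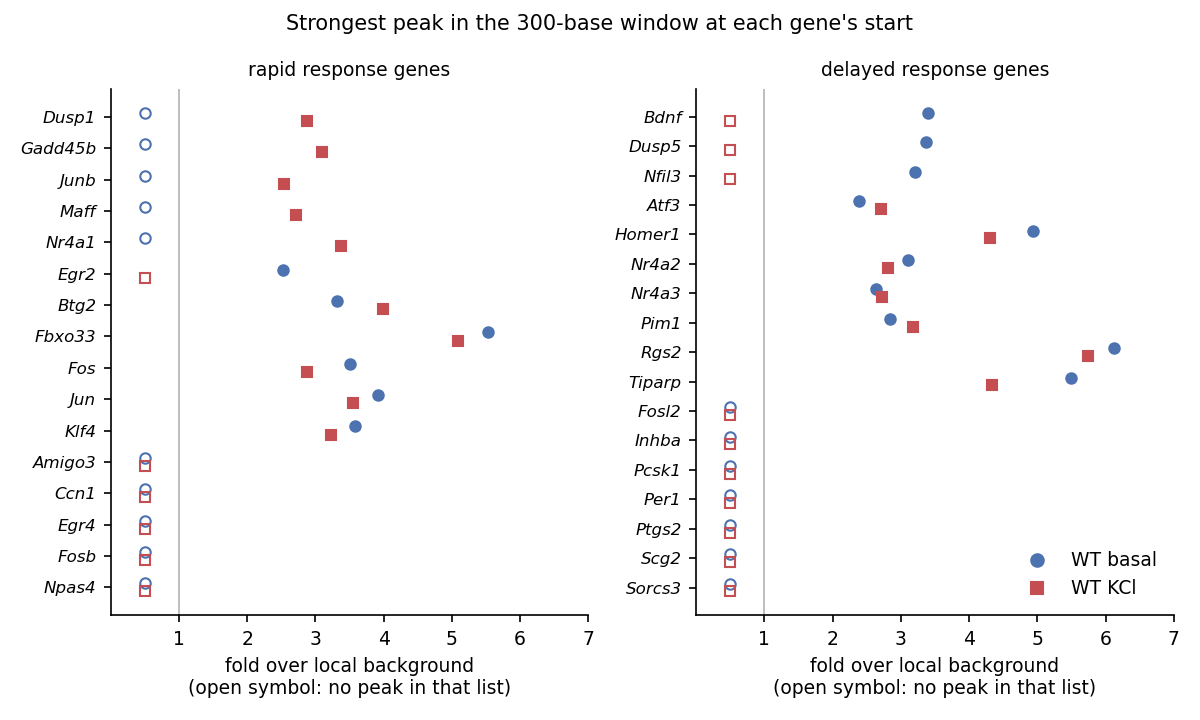
Fold over local background (x axis) of the strongest peak in the start window of each rapid (left) and delayed (right) response gene with a window, for WT basal (circles) and WT KCl (squares). Open symbols mark no peak in that list and are set at 0.5 for display; 5 rapid response genes have a WT KCl symbol alone and 3 delayed response genes a WT basal symbol alone.

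At the starts open in both lists the folds were not higher in 1 list throughout. Fos, the classic early gene, had a fold of 3.5 with 47 fragments in WT basal and 2.88 with 37 in WT KCl. Jun had 3.92 and 3.54, Klf4 3.58 and 3.23, and the ubiquitin ligase subunit gene Fbxo33 5.54 and 5.09, each higher in WT basal. Btg2, an antiproliferative gene, had 3.32 and 4.0, higher in WT KCl. The authors' fold is relative within each list, so these pairs stand side by side and show no change.

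The KCl-only status of these starts depended on low folds. At equal list lengths 5 rapid response starts were of WT KCl alone and 0 of WT basal alone, against 6.88% and 6.23% of all genes. The 0 depended on ranking by fold. With WT basal cut by −log10 p the counts were 5 and 1, the latter Egr2, and shares of all genes were not taken at that cut. The cut by fold kept WT basal peaks from 2.72 and WT KCl peaks from 1.61. The WT KCl peaks at Junb (2.53) and Maff (2.717) lay under the former. Among the 10000 strongest peaks of each list, Nr4a1 and Gadd45b had a start-window peak in WT KCl only and Fos in WT basal only, against 5.71% and 5.63% of all genes. In the cKO lists, which share no library with the WT lists, Junb (fold 2.93), Nr4a1 (2.28) and Gadd45b (3.02) again had a start-window peak after KCl only, as did 10.4% of all genes. Maff and Dusp1 had one in both cKO lists, and Egr2 in neither. Egr4 (3.09), with no start-window peak in either WT list, also had one in cKO KCl only, and Klf4 had one in cKO basal only. Among delayed response genes, Per1, Atf3, Sorcs3, Dusp5 and Ptgs2 had one in cKO KCl only, so this status was not particular to the rapid list. Of all 736 genes with a start-window peak in WT KCl only, 230 (31.3%) had one in cKO KCl only, and these were 13.4% of the 1712 genes of that kind. Of the 1550 genes with a WT basal peak only, 27.7% had a cKO KCl peak only.

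By gene ends, 4 rapid response genes (Junb, Gadd45b, Maff and Egr1) had a peak in WT KCl only, against 4.85% of 20661 protein-coding genes, and 2 (Arc and Ier2) in WT basal only, against 11.6%. Egr1, a zinc finger factor, had a fold of 3.25 in WT KCl. Arc, a synaptic plasticity gene, and Ier2 had folds of 2.37 and 2.24 in WT basal. At equal list lengths 4 genes were of WT KCl alone and 0 of WT basal alone, against 8.34% and 6.58% of all genes, since the Arc and Ier2 peaks had folds under the 2.72 that the cut list kept. With WT basal cut by −log10 p, 4 genes were again of WT KCl alone, and Arc was of WT basal alone.

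Delayed response genes, like all genes with a window, had start-window peaks mostly in both lists or in neither. Of 17 genes with a window, 7 had a peak in both lists: Homer1, Rgs2, Tiparp, Nr4a2, Nr4a3, Atf3 and Pim1. None had one in WT KCl only. Bdnf, which encodes the neurotrophin BDNF (fold 3.4), Dusp5, another MAP kinase phosphatase (3.36), and the repressor gene Nfil3 (3.21) had one in WT basal only. Over all genes with a window the shares were 33.8% in both lists, 4.47% in WT KCl only and 9.42% in WT basal only. A peak in neither list was seen for 7 of the 17 delayed genes and for 8602 of all 16456. The Bdnf peak overlapped a WT KCl peak outside the window, whereas no WT KCl peak lay within 70.2 kb of the Dusp5 peak or 7.47 kb of the Nfil3 peak. In the cKO lists the Dusp5 start was present after KCl only (fold 2.66) and the Nfil3 start before KCl only (3.56). Homer1, a postsynaptic scaffold gene, had folds of 4.94 and 4.31 in WT basal and WT KCl, Rgs2 had 6.12 and 5.74, and Nr4a2 3.11 and 2.82. Atf3 had 2.39 and 2.71 and Pim1 2.84 and 3.18. By gene ends, Sorcs3 (fold 2.89) was of WT KCl alone and Dusp5 and the cyclooxygenase gene Ptgs2 (2.53) of WT basal alone. The shares of all genes were 4.85% and 11.6%. At equal list lengths these counts moved towards WT KCl. The starts of Atf3 and Nr4a3 were then of WT KCl alone and those of Bdnf, Dusp5 and Nfil3 of WT basal alone. Of all genes, 6.88% and 6.23% were of these 2 kinds. By gene ends 4 genes (Atf3, Nr4a3, Nptx2 and Sorcs3) were of WT KCl alone and Dusp5 of WT basal alone, against 8.34% and 6.58% of all genes. As many were of WT KCl alone as on the rapid list. Peaks of WT basal at Atf3, Nr4a3 and Nptx2 had folds of 2.39, 2.64 and 2.58, under the lowest that the cut list kept. When cut by −log10 p, WT basal kept the Nr4a3 peak. No test compares the rapid with the delayed list.

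The start windows of WT basal only and of WT KCl only were alike in GC content and differed in CpG content. Over 18960 windows that do not overlap within a gene, 5725 had a peak in both lists, 1748 in WT basal only and 834 in WT KCl only. Their median GC content was 64.7%, 60.7% and 61.2%, against 50.3% in 10653 windows with no peak. A ratio of observed to expected CpG over 0.6 was found in 88.8% of windows with a peak in both lists, 67.1% of WT basal only and 76.0% of WT KCl only, with medians of 0.839, 0.722 and 0.770. Among the 10000 strongest peaks the shares of WT basal only and WT KCl only were 80.3% and 84.1%. The full CRE stood in 2.57% (1.88 to 3.43%) of windows of WT basal only and 3.48% (2.34 to 4.96%) of WT KCl only, and in 2.24% of all windows. The Egr site stood in 1.03% (0.611 to 1.62%) and 1.92% (1.10 to 3.10%), and in 0.818% of all. The AP-1 site stood in 3.78% and 3.36%, and was most frequent in windows without a peak (6.22%, and 4.72% of all). The CArG box stood in 1.03% and 1.2% (1.43% of all), and the MEF2 site, counted by name, in 0.286% (0.0929 to 0.666%) and 0.839% (0.338 to 1.72%) (0.517% of all). Intervals of windows of WT basal only and of WT KCl only overlapped for each of these motifs.

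**Figure D4:**
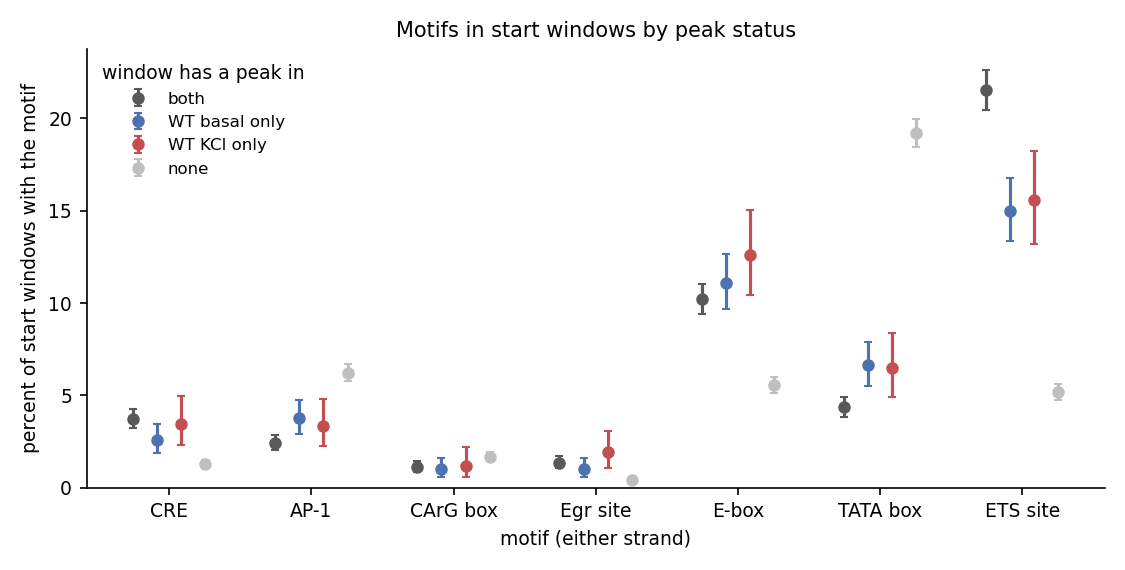
Percent of 300-base start windows with each motif on either strand (y axis), for windows with a peak in both WT lists, in 1 list only or in none, with 95% Clopper-Pearson bars. The bars of windows of WT basal only and WT KCl only overlap for all 7 motifs plotted.

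The CRE core TGACG, which also counts every full CRE, was in 27.0% (24.9 to 29.1%) of windows of WT basal only and 31.2% (28.0 to 34.4%) of WT KCl only, and in 23.6% of all. Among the 10000 strongest peaks of each list, windows of both kinds had a median GC content of 62%. There the core was in 31.4% (28.6 to 34.4%) of 1024 windows of WT basal only and 37.5% (34.5 to 40.5%) of 1009 windows of WT KCl only. These 2 intervals did not overlap, and the core was the 1 of 11 motifs for which this held at either length. Their nearest bounds were 34.4% and 34.5%, and the intervals were not adjusted for the number of motifs. The core itself contains a CpG, and CpG content was not matched at this cut. Windows over the CpG ratio limit given above made up 80.3% of WT basal only and 84.1% of WT KCl only. The part of CpG content in the difference was not tested. The GC box (GGGCGG), the CCAAT box (CCAAT), the E-box (CACGTG), the TATA box (TATAAA) and the ETS site (CCGGAAG) stood in 61.2, 31.4, 11.1, 6.64 and 15% of windows of WT basal only and 64.6, 33.2, 12.6, 6.47 and 15.6% of WT KCl only, over the uncut lists. All windows together had 46.6, 38.1, 7.77, 13.0 and 11.5% of these motifs in the same order.

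Peaks that overlapped kept much of their rank. At equal list lengths 9031 pairs had a Spearman rho of 0.608 between their folds, a description over sites that share their libraries. Each overlap counted as a pair, so a peak that overlapped several peaks of the other list entered several times. Of the pairs, 45.0% lay within 10 percentile points of fold in both lists, and the summits were a median of 53 bp apart. A difference of more than 50 percentile points was seen in 7.30% of pairs, 334 higher in WT KCl and 325 higher in WT basal. Gene-end pairs had a rho of 0.601, intragenic pairs 0.551 and intergenic pairs 0.537.

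**Figure D5:**
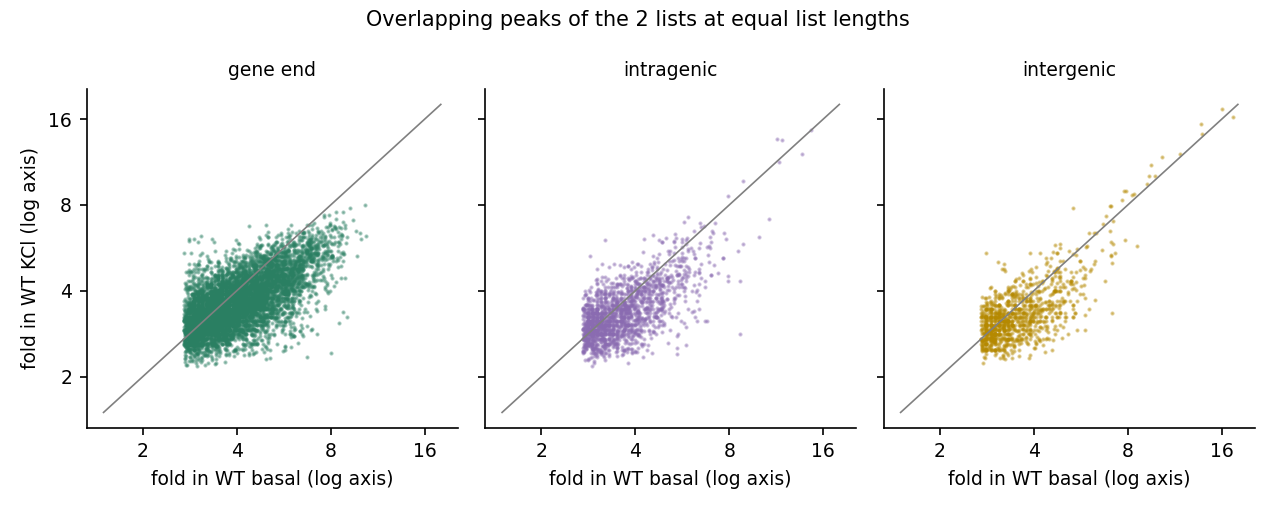
Fold of overlapping peaks in WT basal (x axis, log) and WT KCl (y axis, log) at equal list lengths, for 6368 gene-end, 1628 intragenic and 1035 intergenic pairs, with the line of equal fold. Each point is 1 pair, and a peak with several overlaps gives several points. The highest fold of a WT basal peak is 10.4 at gene ends and 17.4 over all sites.

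The pairs that ranked higher in WT KCl included, at gene ends, Xpr1, a phosphate exporter gene (fold 2.72 in WT basal and 5.41 in WT KCl), Tnrc6b (2.81 and 5.98), Ube2g1 (2.76 and 4.66), Smim13 (2.73 and 4.25) and Rnf103 (2.82 and 6.06). Those that ranked lower were Wdr78 (6.72 and 2.34), the chaperone gene Hsp90b1 (8.03 and 2.41), Cdc5l (5.12 and 2.33), the receptor gene Igf1r (4.95 and 2.30) and Znrf2 (5.62 and 2.46). The summits of all 10 lay between 469 and 1069 bp apart, so the paired values were of different points in wide open regions. The same WT KCl peak at Xpr1 also paired with a WT basal peak of fold 3.11, with summits 121 bp apart. With pairs limited to summits within 150 bp, chosen after seeing the data, the gene-end pairs higher in WT KCl were Mrtfb, which encodes a coactivator of SRF (2.76 and 4.22), Det1, L3mbtl2, Zfp473 and Gm31160. Those lower were Cdc34 (4.61 and 2.43), Hipk2 (4.38 and 2.38), S100pbp, Utp18 and Pds5b.

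Away from gene ends, Camkk1, a kinase that activates calcium/calmodulin-dependent kinases, was among the 5 pairs that ranked higher in WT KCl (2.77 with 51 fragments and 3.98 with 56), with summits 19 bp apart. The others were near Samd9l (2.82 and 5.41), in a second site of Xpr1 (2.72 and 3.79), near Tmem267 (2.72 and 3.8) and in Dlgap4, a postsynaptic density gene (2.76 and 3.88). The 5 that ranked lower lay in Rbpj, the Notch pathway factor (5.45 and 2.41), Lipg (5.44 and 2.53), Rfx3 (5.83 and 2.59), Cnot8 (4.51 and 2.43) and Tcf7l1 (4.24 and 2.35). The summits at Rbpj, Rfx3 and Cnot8 lay 438, 468 and 614 bp apart. With pairs limited to summits within 150 bp, these 3 gave way to sites near Srrm1 (4.33 and 2.44) and Stx11 (4.57 and 2.49) and in Tcf20 (3.8 and 2.24), while the 5 that ranked higher stayed the same.

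Counts of peaks around the response genes depended on how many peaks were kept. Over the uncut lists, 2 rapid response genes had more peaks within 50 kb in WT KCl and 12 had fewer, where 12.1% of all genes had more and 58.6% fewer. At equal list lengths 11 had more and 2 fewer, against 35.3% and 27.7% of all genes. Among the 10000 strongest peaks 2 had more and 4 fewer, against 23.5% and 21.5%. Nr4a1 had 2 WT basal and 6 WT KCl peaks at equal lengths, Fosb 4 and 7, Btg2 2 and 4, Gadd45b 2 and 4, and Jun 3 and 1. With the strongest 10000, Nr4a1 had 2 and 3 and Fosb 2 and 2, so the extra WT KCl peaks were mostly of low fold. Delayed response genes had more in 7 and fewer in 7 at equal lengths, and the median difference was 1 peak for the rapid list and 0 for the delayed list and for all genes. The median was also 1 for housekeeping genes and for oligodendrocyte and microglia markers. With WT basal cut by −log10 p, the rapid list had a median of 0.

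Genes of calcium signalling to the nucleus and of the synapse had mostly fewer WT KCl peaks over the uncut lists, and about as many with more as with fewer at equal lengths. Over the uncut lists 4 of 25 calcium signalling genes had more and 18 fewer, and 0 of 20 synapse genes more and 13 fewer, against 12.1% and 58.6% of all genes. At equal lengths, where the shares of all genes were 35.3% and 27.7%, 11 calcium signalling genes had more and 9 fewer. Mef2a, an activity-regulated factor, had 1 WT basal and 6 WT KCl peaks, and Camk2b 2 and 6, whereas Srf had 6 and 2 and the L-type channel gene Cacna1c 8 and 4. Of the synapse genes 8 had more and 8 fewer. Shank2, a postsynaptic scaffold gene, had 3 and 8 and Stx1a 2 and 6, whereas the adhesion gene Nrxn3 had 13 and 3 and Grin2b, an NMDA receptor subunit gene, 7 and 3. Ion channel genes had more in 6 and fewer in 3 of 15 (1 and 9 over the uncut lists), with Kcnc1 at 0 and 3 and Kcnj6 at 3 and 5, and with Cacna1e at 3 and 2 and Cacna2d1 at 2 and 1. At gene ends 6 of these 15 had a peak in WT basal only over the uncut lists and 3 at equal lengths, against 11.6% and 6.58% of all genes. Cacna1b had one in WT KCl only at both lengths, as did 4.85% and 8.34% of all genes.

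At equal lengths 35.3% of all genes had more WT KCl peaks and 27.7% fewer. Progenitor genes there had more in 6 and fewer in 2 of 12, with Hopx at 1 and 4 and Fabp7 at 1 and 2. Notch1 had 4 and 1 and Eomes 2 and 1. Cell cycle genes had more in 3 and fewer in 8 of 14, with the replication genes Mcm6 at 2 and 4 and Mcm4 at 2 and 3, and with Mcm5 at 5 and 2 and Mcm3 at 3 and 1. Housekeeping genes, which serve as a reference, had more in 9 and fewer in 3 of 14, with Actb at 2 and 5 and Gapdh at 3 and 6, and with Eef1a1 at 6 and 4 and Sdha at 5 and 3. Genes of other lineages had more in 4 and fewer in 6 of 14, with Gata4 at 2 and 4 and Hnf4a at 1 and 3, and with Hoxd10 at 4 and 1 and Gata3 at 4 and 2. These counts moved with list length, and for progenitor genes, housekeeping genes and genes of other lineages their direction turned. Housekeeping genes had more in 1 and fewer in 8 over the uncut lists, and more in 4 and fewer in 6 among the 10000 strongest peaks, where 23.5% of all genes had more and 21.5% fewer. Genes of other lineages had more in 6 and fewer in 1 among the 10000 strongest. Progenitor genes there had more in 4 and fewer in 5, and cell cycle genes more in 5 and fewer in 6. Over the uncut lists progenitor genes had more in 1 and fewer in 7, cell cycle genes more in 2 and fewer in 12, and genes of other lineages more in 0 and fewer in 11. Of all genes, 12.1% had more and 58.6% fewer over the uncut lists.

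The largest net differences at equal lengths were at Cwc22, a splicing factor gene, with 2 WT basal and 33 WT KCl peaks, Hjurp (1 and 11), Agap1 (2 and 10), Eif4enif1 (2 and 10) and Bicra, which encodes a BAF subunit (2 and 9). Over the uncut lists Cwc22 had 37 and 33 peaks, and among the 10000 strongest 2 and 2. The difference there was thus one of peaks of low fold that the cut removed from WT basal only. Bicra kept 0 and 5 among the 10000 strongest and was the leading gene at that length, with Cdc23, Fam222b, Impdh1 and Plcl1.

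Fewer WT KCl peaks were found at Zfp978, a zinc finger gene (22 and 11), Nrxn3 (13 and 3), Anks1b, a postsynaptic gene (13 and 4), the apoptosis regulator Bcl2 (11 and 3) and Epb41l4a (11 and 3). Over the uncut lists these were 23 and 11, 14 and 3, 17 and 4, 12 and 3, and 16 and 3. Among the 10000 strongest, the genes with the largest deficit were Cacna2d3, a calcium channel subunit gene (5 and 0), Gm37013 (10 and 5), Nfia (8 and 3), Zfp978 (14 and 9) and 2610044O15Rik8 (4 and 0). Zfp978 lies in a cluster of closely similar zinc finger genes, between which the counting of reads could be uncertain.

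Gene-end peaks stood at markers of neurons and of macroglia, and at no marker of microglia. Counts of markers with a peak in both lists or in neither have no share of all genes beside them. They therefore say nothing on cell content. Of 10 neuron markers, 6 had a gene-end peak in both WT lists, among them Tubb3, Map2 and Stmn2, with Snap25 in WT basal only and Eno2 in WT KCl only, and Rbfox3 and Gap43 had none. Of 15 excitatory markers 6 had one in both, 2 (Fezf2 and Sox5) in WT basal only and 2 (Cux2 and Emx1) in WT KCl only, while Slc17a7, Neurod2 and Tbr1 had none. Of 14 inhibitory markers 3 had one in both, 5 (Dlx2, Dlx6, Sst, Calb2 and Nxph1) in WT basal only and Dlx1 in WT KCl only. Of 10 astrocyte markers 3 (Aldoc, Slc1a2 and Sox9) had one in both, and 4 (Gfap, Aldh1l1, Slc1a3 and S100b) in WT basal only. Of 10 oligodendrocyte markers Olig1 and Olig2 had one in both, and Mbp and Cnp in WT basal only. None of 10 microglia markers had a gene-end peak in either list, and 1 of 10 vascular markers, Flt1, had one in both. Gene ends in WT basal only were thus found for 5 of 14 inhibitory, 4 of 10 astrocyte and 2 of 10 oligodendrocyte markers, against 11.6% of all genes. At equal lengths these counts were 4, 3 and 0, against 6.58%. In WT KCl only they were 1, 0 and 0 over the uncut lists and 1, 1 and 0 at equal lengths. Lists of other kinds also had gene ends in WT basal only over the uncut lists. These were 4 of 14 genes of other lineages, 6 of 15 ion channel genes and 3 of 12 progenitor genes. Cell cycle and housekeeping genes had 1 of 14 and 0 of 14. The share of all genes with a gene-end peak in both lists was not counted. The part of cell types in the differences above was not tested.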

How the data were processed

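Nucleosome-free ATAC-seq peak lists of 4 conditions, with 2 libraries each, were used. Bowtie2 and MACS2 were used by the authors with builds GRCm38 and mm10, names of 1 assembly, per the submitters' processing notes. No version or setting, no fragment length limit and no rule for merging replicate libraries was given in the sources used here. The labels state 60 M reads per library with 75-bp paired reads. The deposited lists have no header, and by the narrowPeak layout hold a score, the fold over local background (a ratio), and the −log10 of the p-value and q-value of each peak. These per-peak values are the authors' and were used only to rank, filter or describe peaks within a list.

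From the fold and the Poisson p, with the pseudocount of 1, a whole-number summit pileup was solved for 100% of peaks in each WT list, within 0.001 in −log10 p. The median was 32 fragments in WT basal and 30 in WT KCl. Read totals are unknown. Peaks were matched by at least 1 bp of overlap, and lists were cut to equal lengths by fold. Genes, strands and start windows came from RefSeq tables of GRCm38.p6, with 20661 protein-coding genes on chromosomes 1 to 19 and start windows for 16456. Motifs were counted on both strands of the windows. Peaks away from gene starts were not searched, since no genome sequence was used. The members and the 16 gene lists were chosen with earlier results of these data known.

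Named genes were all rapid and delayed response genes, the 10 strongest unmatched peaks per direction at and away from gene ends, the 5 genes with the largest net gain or loss of peaks within 50 kb, the 5 matched pairs per direction and site kind with the largest difference in fold percentile, and the genes of each other list with the largest net differences, except a few genes that are not reported here. Alternatives were another overlap rule, a −log10 q of at least 5, other windows, other list lengths, chromosomes X and Y, and ranking by −log10 p. Start windows, the 10000-peak cut for genes and the 150-bp summit limit for pairs were added after seeing the data. Python 3.11.15, pandas 2.3.3 and scipy 1.17.1 were used, and the matching and pileup code was tested on simulated data.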

Additional observations from a re-analysis of the deposited data

Results flagged for a closer look

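The number of peaks on chromosomes 1 to 19 differed between WT basal and WT KCl in the opposite direction to the cKO lists. KCl minus basal was -13481 peaks in WT neurons and 5026 in cKO neurons. Each value rests on 1 list per condition, and the difference between the genotypes was not tested.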

How the results depend on the processing

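With no replicate lists, an alternative was taken as moving a share when it left the 95% interval of the main share, and as moving a count when it changed it by more than 1.5 times. Chromosomes X and Y moved neither unmatched share. The unmatched share of WT basal was 76.7% with reciprocal overlap of 50%, 75.6% with summits within 150 bp, 54.7% at a −log10 q of at least 5 and 56.2% at equal list lengths. For WT KCl the values in the same order were 60.8%, 59.0%, 30.0% and 55.4%, so the share of WT basal was the larger by overlap, by summits and by q. At equal lengths both shares are close by construction and their order carries no information. It turned with length, with 36.9% and 37.0% at 2000 peaks. The gene-end share of WT basal at equal lengths was 42.1% when ranked by −log10 p, 72.5% and 57.5% in the strongest 5000 and 10000 peaks, and 36.2% and 44.2% with windows of 500 bp and 2 kb. That of WT KCl was 42.5% by either rank, since its whole list was kept, so the gap nearly closed by −log10 p. It was 74.3%, 57.8%, 38.0% and 47.3% for the same lengths and windows.

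Counts of response genes were small and moved with list length. The rapid genes with a gene-end peak in WT basal only were 0 at equal lengths and 1 with the strongest 10000 peaks, and those in WT KCl only were 2 with the strongest 10000. By start windows the counts were 0 in WT basal only at equal lengths and 2 in WT KCl only with the strongest 10000. With WT basal cut by −log10 p, 1 rapid gene by start windows and 1 by gene ends was of WT basal only. Rapid genes with more WT KCl peaks nearby were 2 on the uncut lists and 2 with the strongest 10000. Rapid genes with fewer were 1 within 100 kb, 12 on the uncut lists and 4 with the strongest 10000. By −log10 p, 8 had more and 3 fewer. Delayed genes with a gene-end peak in WT basal only were 1 at equal lengths, and those in WT KCl only 4 at equal lengths and 2 with the strongest 10000. By start windows, 2 delayed genes were of WT KCl only at equal lengths and 1 with the strongest 10000. Delayed genes with more peaks nearby were 3 on the uncut lists, and those with fewer 3 within 10 kb, 13 on the uncut lists and 4 with the strongest 10000. The 10000-peak gene counts, the start windows and the −log10 p rank for gene counts were chosen after seeing the data, and the cause of these shifts was not tested. No paired analysis was possible because each condition has 1 deposited list for its 2 libraries. Most unmatched peaks rest on about 30 fragments, so absence from a list is a threshold call and does not show a closed site.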
